A study of Mus musculus with 14 samples.

Results

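Plasmacytoid dendritic cells were followed here through a set of 9 identity genes: the surface receptors Siglech, Lair1 and Ptprs, the transcription factors Tcf4, Spib, Bcl11a and Runx2, and the intracellular proteins Pacsin1 and Cox6a2. The genes were taken by symbol, among probes annotated to exactly 1 gene, and the brightest probe on average stood for the gene. This gave 8 of the 9 genes, out of 22180 named genes in all, and Runx2 was not analysed here. All 8 were bright enough to test, as were 13805 genes of the whole table. Bcl11a had 2 probes and each of the others had 1.

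The cells were bone marrow cells of female NCR-NU nude mice, sorted by flow cytometry for the surface antigen Sca1 and for absence of the receptor Kit. Nude mice have no functional thymus. The 4 groups were old mice with a primary tumour (3 mice), old mice that were cancer-free and carried a Matrigel plug as control (5 mice), young mice with a primary tumour (3 mice) and young cancer-free mice with a Matrigel plug (3 mice). Tumours were matched in size, each mouse had 1 array (14 in all), and the labels give neither the tumour line nor the ages in weeks or months. The design addresses how host age and a tumour each change the profile of these marrow cells.

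Plasmacytoid dendritic cells are formed in the bone marrow from progenitors that carry the receptor Flt3, and they are known as the main early source of type I interferon when the endosomal receptors Tlr7 and Tlr9 meet viral RNA or DNA. The E protein E2-2, encoded by Tcf4, maintains their identity. It works beside Spib, an Ets-family factor shared with B cells, and Bcl11a, a zinc-finger factor needed by both lineages, while the inhibitor Id2 favours conventional dendritic cells. Siglech, a sialic-acid-binding lectin, is the classical mouse surface marker of these cells.

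Values are the deposited log2 expression values, on which a difference of 1 is a factor of 2, and levels are compared only within a gene. The median of the whole table, 3.88, served as a floor below which a gene was taken as dim. Array medians lay between 3.81 and 3.93, and replicates of a typical gene (the median SD in a group) spread by 0.226 to 0.316. With 3 to 5 arrays a group, precision is set by how few they are. The labels call the arrays biological replicates, 1 mouse each. Of 8 defining markers, Siglech, Bst2, Tlr7, Tlr9, Irf8 and Ly6d were above the floor on all 14 arrays, Klk1 on 13 and Ccr9 on 11. In old tumour-bearing mice Klk1 passed it on 2 of 3 arrays and Ccr9 on 1 of 3. Ccr9 passed it on 4 of 5 in old cancer-free mice. Markers of these cells were thus measured in every group. The share of all genes above the floor on every array was not measured. Markers of other cells were measured too. The mean over 8 T cell markers was 6.55 to 8.36 and that over 12 B lineage markers 6.06 to 6.93 on the arrays. It was 7.15 to 8.48 over 8 natural killer cell markers and 9.12 to 9.88 over 6 plasma cell markers. These means are not compared between lists. Of 10 stromal and osteoblast markers measured, 4 (Sp7, Ibsp, Lepr and Pdgfra) were below the floor on every array. Of 6 endothelial markers, 2 (Tek and Emcn) were. The other markers of both lists passed the floor on some arrays, and 5 stromal and 4 endothelial markers were bright enough to test. In these bulk samples, fewer cells of a type and less RNA per cell cannot be told apart.

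The promoter windows of Siglech, Spib and Bcl11a are shown because these genes had some of the largest differences between the ages, described below, and because their letters can be read for the core motifs of the factors named above. They are 300-base windows from RefSeq on GRCm38.p6, with 250 bases before and 50 after the annotated start, written 5′ to 3′. Siglech lies at chr7:55767934-55768233 on the plus strand, Spib at chr7:44532022-44532321 on the minus strand and Bcl11a at chr11:24080445-24080744 on the plus strand. Capitals mark the E-box CANNTG, the Ets core GAGGAA and the RUNX core TGTGGT, each on either strand.
Siglech: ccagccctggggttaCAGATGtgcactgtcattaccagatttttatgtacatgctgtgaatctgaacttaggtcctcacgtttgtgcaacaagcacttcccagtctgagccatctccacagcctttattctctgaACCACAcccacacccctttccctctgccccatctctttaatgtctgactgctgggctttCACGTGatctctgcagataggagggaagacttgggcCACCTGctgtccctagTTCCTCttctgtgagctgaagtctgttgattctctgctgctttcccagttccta
Spib: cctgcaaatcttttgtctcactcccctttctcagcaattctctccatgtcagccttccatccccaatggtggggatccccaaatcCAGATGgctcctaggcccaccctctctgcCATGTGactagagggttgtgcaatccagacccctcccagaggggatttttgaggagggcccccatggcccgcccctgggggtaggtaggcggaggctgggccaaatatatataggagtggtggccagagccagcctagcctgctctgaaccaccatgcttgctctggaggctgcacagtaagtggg
Bcl11a: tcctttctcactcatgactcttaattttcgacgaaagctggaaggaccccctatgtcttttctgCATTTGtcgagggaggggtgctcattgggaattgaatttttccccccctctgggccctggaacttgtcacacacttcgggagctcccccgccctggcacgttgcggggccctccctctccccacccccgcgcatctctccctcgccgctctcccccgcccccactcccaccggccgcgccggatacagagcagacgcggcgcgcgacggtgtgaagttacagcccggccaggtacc

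The Siglech window held 3 E-boxes, 1 Ets core 4 bases before the start, read as TTCCTC, and 1 RUNX core, read as ACCACA. The Spib window held 2 E-boxes and the Bcl11a window 1, and neither held the other cores. Windows were found for 6 of the 8 genes (7 windows, as Ptprs has 2 starts). Of these 7, 5 held CANNTG, which 72.3% of 32851 windows of the same length hold. GAGGAA was in 3 of the 7, against 28.3% of all windows, and TGTGGT in 2 of the 7, against 16.8%. CAGCTG, one E protein form among the CANNTG words, was in 0 of the 7 and in 16.3% of all windows. Other CANNTG words, such as the CACCTG of the Siglech window, were not counted separately. These matches describe the letters of the windows only.

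The first comparison was between old and young hosts, averaged over tumour-bearing and cancer-free mice. All 8 genes had a lower mean in old mice, by 0.23 to 2.14 on the log2 scale with a median of -0.83, where the median over all tested genes was -0.01 and 52% of genes had a difference below 0. Adjusted over all genes, limma called 0 of the 8, while 12 genes (0.0869%) were called in the whole table, a number that was 0 when young cancer-free replicate 3 was left out and 74 when old tumour-bearing replicate 3 was. At an unadjusted p under 0.05, 5 of the 8 were lower in old mice (Cox6a2, Siglech, Spib, Ptprs and Bcl11a), against 8.97% of all genes lower and 4.44% higher. Among genes at this unadjusted p, 66.9% were lower in old mice, a share of 56.2% with cyclic loess and 81.8% with median centring of the arrays. The genes were chosen with earlier results of these arrays known, so their direction is not independent evidence.

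**Figure D1:**
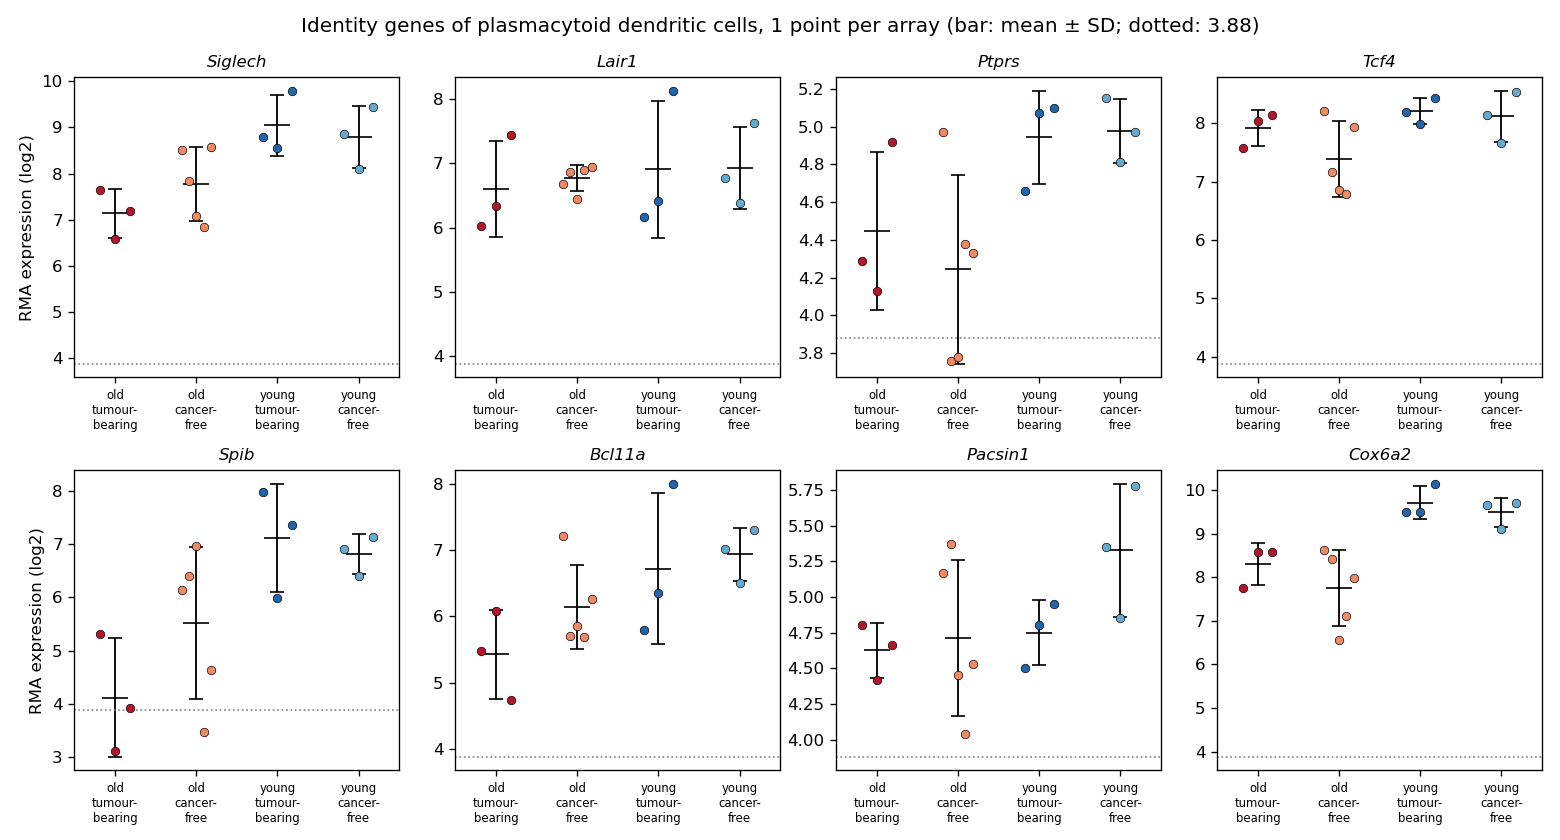
Deposited log2 expression of the 8 genes, 1 point per array, in old tumour-bearing, old cancer-free, young tumour-bearing and young cancer-free mice, with the mean ± SD as a bar and the floor of 3.88 dotted; each panel has its own y axis, which does not start at 0. The 8 old arrays of Cox6a2 lie below the 6 young arrays, while old and young arrays of the other 7 genes overlap.

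Among the receptors, Siglech stood at 7.64, 6.59 and 7.19 in old tumour-bearing mice and at 8.51, 7.83, 7.08, 6.84 and 8.58 in old cancer-free mice. It stood at 8.79, 8.55 and 9.79 in young tumour-bearing mice and at 8.86, 8.09 and 9.43 in young cancer-free mice. The tumour-bearing ages did not overlap, whereas old cancer-free replicates 1 and 5 lay above young cancer-free replicate 2. The difference, old minus young on average, was -1.46 ± 0.34 (SE; 2.76-fold lower, adjusted p = 0.0902 in limma), with an unadjusted 95% interval of -2.19 to -0.74.

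Ptprs encodes receptor protein tyrosine phosphatase sigma, a receptor best known from neurons that is also found on plasmacytoid dendritic cells. It lay near the floor, at 4.29, 4.13 and 4.92 in old tumour-bearing mice and 4.97, 3.76, 3.78, 4.38 and 4.33 in old cancer-free mice, against 4.66, 5.07 and 5.10 in young tumour-bearing mice and 5.15, 4.81 and 4.97 in young cancer-free mice. Old cancer-free replicates 2 and 3 were under the floor, so the difference of -0.61 ± 0.20 (adjusted p = 0.226 in limma) is not an exact size. Old tumour-bearing replicate 3 and old cancer-free replicate 1 lay among the young arrays.

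Lair1, an inhibitory collagen receptor carried by many leukocytes, had the smallest age difference of the 8, at -0.23 ± 0.32 (adjusted p = 0.804 in limma, 95% interval -0.92 to 0.46). It was at 6.03, 6.33 and 7.45 in old tumour-bearing mice and 6.45 to 6.95 in old cancer-free mice. The young values were 6.17, 6.42 and 8.13 in tumour-bearing mice and 6.78, 6.38 and 7.63 in cancer-free mice. All groups overlapped, and the sign turned (0.08) without young tumour-bearing replicate 3, the highest array.

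Among the transcription factors, Spib had the largest mean difference of the 8 genes, -2.14 ± 0.54 (4.42-fold lower in old mice, adjusted p = 0.117 in limma, 95% interval -3.30 to -0.99). Its values were 5.31, 3.11 and 3.93 in old tumour-bearing mice and 6.13, 6.39, 6.96, 3.47 and 4.64 in old cancer-free mice. In young mice they were 7.98, 5.99 and 7.36 with a tumour and 6.90, 6.40 and 7.14 without. Old arrays ranged from below the floor (old tumour-bearing replicate 2 and old cancer-free replicate 4) up to the level of young mice, so the size is not exact.

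Bcl11a was at 5.47, 6.08 and 4.74 in old tumour-bearing mice and at 7.21, 5.71, 5.85, 5.69 and 6.26 in old cancer-free mice. It was at 5.80, 6.36 and 8.0 in young tumour-bearing mice and at 7.01, 6.51 and 7.30 in young cancer-free mice. The difference was -1.04 ± 0.36 (adjusted p = 0.238 in limma), and old tumour-bearing replicate 2 and old cancer-free replicates 1, 3 and 5 lay within the young range. The dimmer of its 2 probes gave -1.24 ± 0.29 (adjusted p = 0.0895 in limma).

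Tcf4 stood at 7.57, 8.04 and 8.15 in old tumour-bearing mice, close to the 8.20, 7.99 and 8.43 of young tumour-bearing mice. Old cancer-free mice were more spread, at 8.21, 7.17, 6.85, 6.79 and 7.94, against 8.15, 7.67 and 8.54 in young cancer-free mice. Its difference on average was -0.51 ± 0.24 (1.42-fold lower, adjusted p = 0.386 in limma), with an interval of -1.03 to 0.01.

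Of the intracellular proteins, Cox6a2 separated the ages most cleanly. Cox6a2 is the heart and muscle isoform of a subunit of cytochrome c oxidase, the last complex of the respiratory chain. It was at 7.75, 8.58 and 8.58 in old tumour-bearing mice and at 8.62, 8.42, 6.57, 7.12 and 7.98 in old cancer-free mice. Young tumour-bearing mice were at 9.50, 9.49 and 10.14 and young cancer-free mice at 9.65, 9.11 and 9.69. The highest old array (8.62) was below the lowest young array (9.11), a separation in this direction that 0.398% of all tested genes showed and 1 of the 8 genes here. The difference was -1.57 ± 0.31 (2.98-fold lower, 95% interval -2.23 to -0.91, adjusted p = 0.0680 in limma). It was called without old cancer-free replicate 1 (-1.68, adjusted p = 0.0452 in limma), with median centring (-1.62, adjusted p = 0.0438) and with array weights (-1.65, adjusted p = 0.0406). Over all 25 alternatives its adjusted p lay between 0.0406 and 0.175.

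Pacsin1, an adaptor of membrane traffic and the cytoskeleton that takes part in the interferon response to Tlr9 in these cells, was at 4.80, 4.42 and 4.66 in old tumour-bearing and 5.17, 5.37, 4.45, 4.04 and 4.53 in old cancer-free mice. It was at 4.50, 4.80 and 4.95 in young tumour-bearing and 5.35, 4.85 and 5.78 in young cancer-free mice. Its difference of -0.37 ± 0.22 had adjusted p = 0.488 in limma, and the ages overlapped.

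Taken separately, the age comparisons were made in tumour-bearing mice (3 old and 3 young) and in cancer-free mice (5 old and 3 young). In tumour-bearing mice all 8 differences were again below 0 (49.5% of all genes were), with a median of -0.89. Siglech was lower by a difference of -1.90 ± 0.50, Spib by -2.99 ± 0.80, Cox6a2 by -1.41 ± 0.46 and Bcl11a by -1.29 ± 0.53, each at an unadjusted p under 0.05, which 6.35% of genes reached in this direction. The other differences were -0.50 ± 0.30 for Ptprs, -0.30 ± 0.48 for Lair1, -0.29 ± 0.36 for Tcf4 and -0.12 ± 0.32 for Pacsin1. The groups did not overlap for Siglech, Spib and Cox6a2 (3 of 8, against 7.1% of all genes).

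In cancer-free mice all 8 differences were below 0 as well (55.5% of all genes were), with a median of -0.76. Here Cox6a2 (-1.74 ± 0.41), Siglech (-1.03 ± 0.45), Ptprs (-0.73 ± 0.27) and Tcf4 (-0.73 ± 0.32) had an unadjusted p under 0.05, against 5.17% of genes in this direction. Spib was at -1.30 ± 0.72, Bcl11a at -0.80 ± 0.47, Pacsin1 at -0.62 ± 0.29 and Lair1 at -0.16 ± 0.43. Cox6a2 was the 1 gene of the 8 without overlap, against 4.4% of all genes. In both settings limma called 0 genes of the whole table (0%), and the lowest adjusted p among the 8 was 0.217 in tumour-bearing mice (Siglech) and 0.448 in cancer-free mice (Cox6a2). In cancer-free mice the number of the 8 at an unadjusted p under 0.05 became 1 when young cancer-free replicate 1 was left out, 2 when the left-out array was young cancer-free replicate 3 or old cancer-free replicate 4, and 6 without old cancer-free replicate 1.

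**Figure D2:**
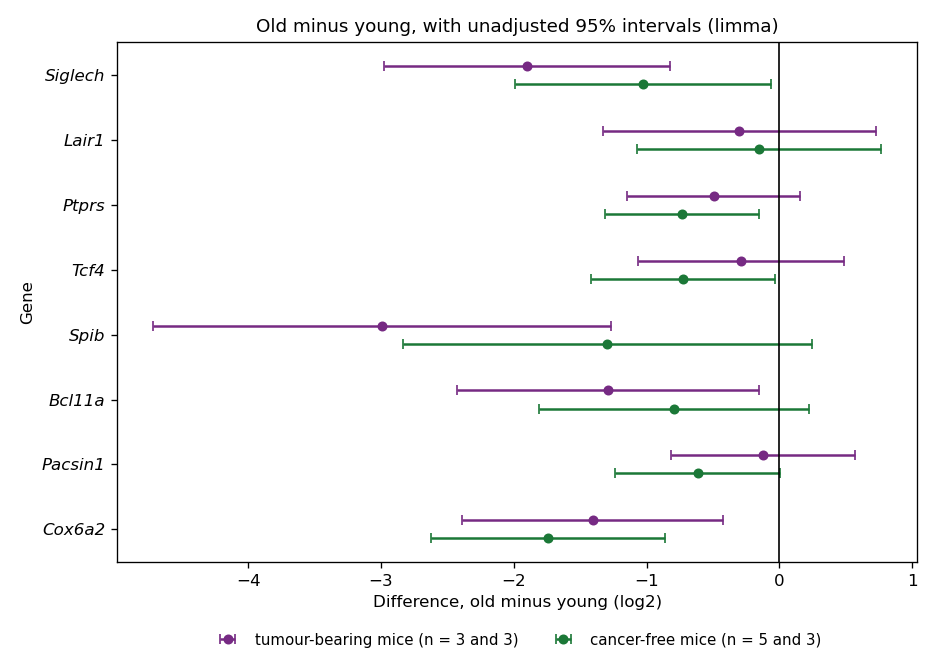
Difference of each gene, old minus young, on the log2 scale with unadjusted 95% intervals from limma, in tumour-bearing mice (3 old, 3 young) and cancer-free mice (5 old, 3 young). All 16 estimates lie below 0, and the intervals of Siglech and Cox6a2 lie below 0 in both settings.

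The second comparison set hosts with a tumour against hosts without one. In old mice the 8 differences ran both ways, with 5 below and 3 above 0 (48.7% of all genes were below) and a median of -0.12. In young mice 4 were below and 4 above 0 (52.8% of all genes were below), with a median of 0.04. Limma called 0 genes in either age, and 0 of the 8 had an unadjusted p under 0.05, which 9.76% of all genes had in old mice and 5.4% in young mice. None of the 8 had every tumour-bearing array below every cancer-free array in old mice, as 3.04% of all genes had. Averaged over the ages, 0 of the 8 had an unadjusted p under 0.05, against 10.2% of all genes (0 called).

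In old mice Spib was at -1.40 ± 0.72 (95% interval -2.94 to 0.14), Bcl11a at -0.71 ± 0.47 and Siglech at -0.63 ± 0.45, while Cox6a2 was at 0.56 ± 0.41 (-0.32 to 1.44) and Tcf4 at 0.53 ± 0.32. Ptprs, Lair1 and Pacsin1 lay between -0.16 and 0.21. In young mice Spib was at 0.29 ± 0.80 (95% interval -1.43 to 2.02), Siglech at 0.25 ± 0.50 (-0.83 to 1.33) and Cox6a2 at 0.23 ± 0.46 (-0.76 to 1.21). The gene farthest from 0 in young mice was Pacsin1, at -0.57 ± 0.32. The interval of Spib leaves room for a factor of 2 either way in young mice, so the groups are not shown to be alike.

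Whether the tumour difference itself differed between the ages was tested by the interaction term. Its value, old minus young, was -1.69 ± 1.08 for Spib (adjusted p = 0.976 in limma), -0.87 ± 0.67 for Siglech (adjusted p = 0.976) and 0.33 ± 0.62 for Cox6a2 (adjusted p = 0.993). At an unadjusted p under 0.05 there were 0 of the 8 genes, against 4.42% of all genes, and limma called 0 in the table. The interaction equals the age difference in tumour-bearing mice minus that in cancer-free mice, so the larger Spib and Siglech differences in tumour-bearing mice are not shown to differ from those in cancer-free mice.

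**Figure D3:**
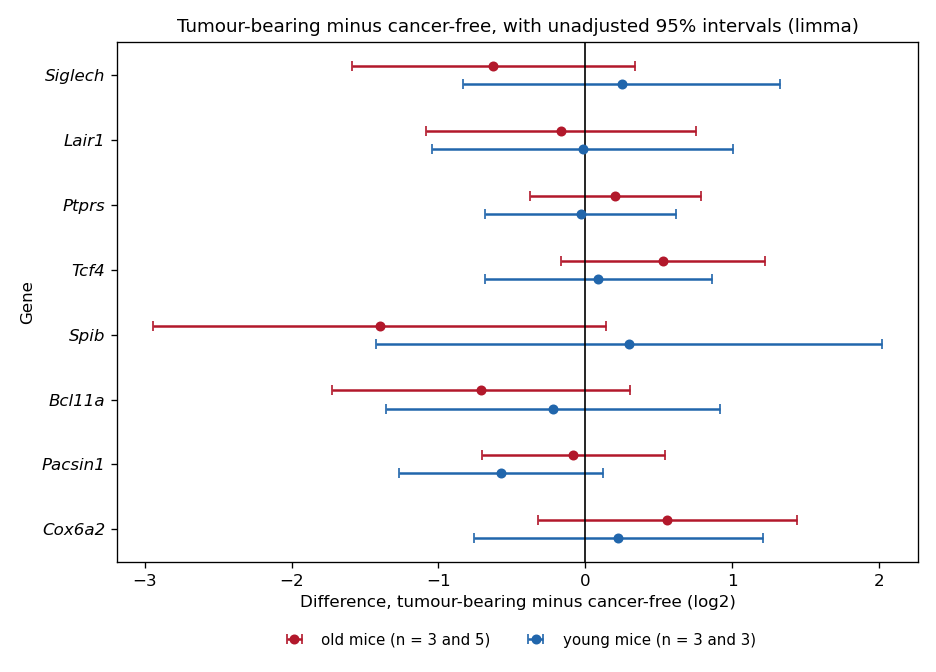
Difference of each gene, tumour-bearing minus cancer-free, on the log2 scale with unadjusted 95% intervals from limma, in old mice (3 and 5 arrays) and young mice (3 and 3 arrays). All 16 intervals include 0, and those of Spib are the widest.

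The order of the group means was read with these spreads in mind. The means of Siglech and Spib were lowest to highest in the order old tumour-bearing (7.14 ± 0.53 and 4.12 ± 1.11), old cancer-free (7.77 ± 0.80 and 5.52 ± 1.43), young cancer-free (8.80 ± 0.67 and 6.82 ± 0.38) and young tumour-bearing (9.04 ± 0.66 and 7.11 ± 1.02; SD). Neighbours in this order overlapped for both genes. Cox6a2 ran from old cancer-free (7.74 ± 0.87) through old tumour-bearing (8.30 ± 0.48) and young cancer-free (9.48 ± 0.32) to young tumour-bearing mice (9.71 ± 0.37), and its only gap was between the ages.

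The 8 genes were also compared with each other from array to array. After each group mean was subtracted, 25 of 28 pairs of genes had a correlation above 0 over the 14 arrays, with a median of 0.44 and a range of -0.28 to 0.79. The pairs share arrays and their normalisation. The share of positive pairs among all tested genes was not measured, so the count is not shown to be particular to these genes. The highest was Tcf4 with Cox6a2 (0.79), followed by Siglech with Tcf4 (0.77) and Siglech with Pacsin1 (0.69). Spib was at -0.28 with Ptprs, -0.10 with Lair1, -0.01 with Cox6a2, 0.05 with Bcl11a and 0.06 with Tcf4, but at 0.36 with Siglech and 0.52 with Pacsin1. Old cancer-free replicate 3 had the highest Spib of its group (6.96) and the lowest Cox6a2 of all arrays (6.57).

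**Figure D4:**
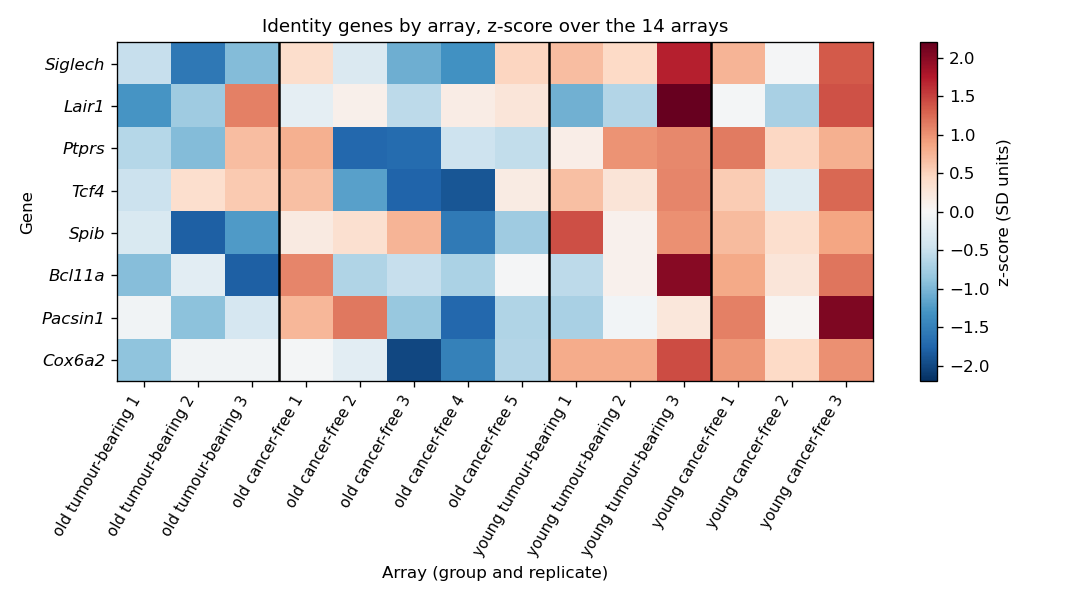
Level of each gene on each array as a z-score over the 14 arrays (red above and blue below the gene's mean, in SD units), arrays by group and replicate. Young tumour-bearing replicate 3 and young cancer-free replicate 3 have the highest mean z-scores (1.34 and 1.24), and old cancer-free replicate 4 the lowest (-1.12).

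The mean z-score of the 8 genes on an array was -0.75 to -0.26 in old tumour-bearing and -1.12 to 0.45 in old cancer-free mice, against 0.17 to 1.34 in young tumour-bearing and 0.07 to 1.24 in young cancer-free mice. Old cancer-free replicate 1, at 0.45, was the old array within the young range. Of all other tested genes, the 10 whose level was most like this mean (Pearson r over 14 arrays) were Mpeg1 (0.94), Irf8 (0.94), Slc29a3 (0.92), E2f8 (0.90), Pltp (0.89), Ctsl (0.89), P2ry13 (0.88), Myb (0.88), Skap2 (0.88) and Bst2 (0.88). After subtraction of the group means, 5 of these were again among the first 10: Irf8 (0.93), Mpeg1 (0.91), P2ry13 (0.91), Ctsl (0.90) and Skap2 (0.88). The other 5 were then Rilpl2 (0.88), Tfrc (0.87), Clec7a (0.87), Net1 (0.86) and Lmtk3 (0.86).

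The wider programme of these cells was read from 21 listed genes of nucleic acid sensing, interferon and surface markers, of which 20 were tested. Between old and young hosts on average, limma called 0 of the 20, while 12 had an unadjusted p under 0.05 and were lower in old mice (8.97% of all genes), and 0 were higher (4.44%). The median difference was -0.63, against -0.01 over all genes. Flt3, the receptor of dendritic cell progenitors, was at -1.47 ± 0.30 (adjusted p = 0.0768 in limma), and its means in old mice were 4.45 ± 0.63 with a tumour and 4.36 ± 0.58 without, against 6.49 ± 0.80 and 5.27 ± 0.48 in young mice with and without a tumour (SD). It was under the floor on 1 array of each old group. Tlr7, the sensor of single-stranded RNA, was at -1.13 ± 0.26, and Tlr9, the sensor of unmethylated DNA, at -0.82 ± 0.28. Irf8, a factor of dendritic cell development, was at -1.29 ± 0.44, the sodium pump subunit Atp1b1 at -1.11 ± 0.27 and Bst2, the antiviral protein tetherin, at -0.99 ± 0.31. Irf7, which drives interferon transcription, was at 0.32 ± 0.28 (adjusted p = 0.668 in limma). In tumour-bearing mice 5 of the 20 were lower in old hosts at an unadjusted p under 0.05 (6.35% of all genes), and in cancer-free mice 6 (5.17%), with medians of -0.58 and -0.72. Between tumour-bearing and cancer-free hosts 3 of the 20 had such a p in old mice (9.76% of all genes) and 1 in young mice (5.4%), so the share in young mice was at that of all genes, with medians of -0.05 and 0.12. Ifnb1 was not tested, at 2.32 or less on every array.

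Of 11 genes listed as partners, cofactors and antagonists of the transcription factors, 10 were tested. Limma called 0, 3 were lower at an unadjusted p under 0.05 (8.97% of all genes) and 0 higher (4.44%), and the median was -0.20, against -0.01 over all genes. Etv6, an Ets-family repressor, was at -0.64 ± 0.22 and Cbfa2t3, a corepressor that binds E proteins, at -0.38 ± 0.15. The third was Nfil3, at -0.36 ± 0.14. The E proteins Tcf3 (-0.22 ± 0.13) and Tcf12 (-0.15 ± 0.15) did not reach it. Id2 was at -0.15 ± 0.20 between the ages, with levels in old mice of 8.12 ± 0.55 with a tumour and 9.03 ± 0.37 without, against 8.49 ± 0.34 and 8.97 ± 0.11 in young mice with and without a tumour (SD). Zeb2 was not analysed here.

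Relatives of the 8 genes are set beside them for comparison. Cox6a1, the isoform of most tissues, was at -0.06 ± 0.13 (adjusted p = 0.889 in limma), against -1.57 ± 0.31 for Cox6a2. Pacsin2 was at -0.12 ± 0.24, against -0.37 ± 0.22 for Pacsin1. Spi1, encoding PU.1, was at -0.39 ± 0.32, against -2.14 ± 0.54 for Spib, and Bcl11b, a T cell factor, at 0.56 ± 0.20, against -1.04 ± 0.36 for Bcl11a. The lectins Siglece (-0.13 ± 0.29) and Siglecf (-0.01 ± 0.13) lay around the floor, while Siglecg was at -0.63 ± 0.17 (adjusted p = 0.150 in limma). Runx1 was at -0.57 ± 0.21 and Runx3 at -0.37 ± 0.11. Of 16 relatives, 11 were tested and 0 were called. At an unadjusted p under 0.05, 3 of the 11 were lower (Siglecg, Runx3 and Runx1, against 8.97% of all genes) and 1 was higher (Bcl11b, against 4.44%), with a median of -0.15. Spic, Pacsin3, Ptprd, Ptprf and Siglec1 were too dim, with 4.18 or less on every array. Differences between a gene and its relative were not tested.

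Lists of markers of other cells and of cell states were read in the same comparison, old minus young on average. Their counts at an unadjusted p stand against 8.97% of all genes lower and 4.44% higher, and their medians against -0.01. Monocyte and macrophage markers were listed because Lair1 is a myeloid gene too. Of these 9 markers, 6 were lower at an unadjusted p under 0.05 and 1 was called, Itgam (-0.96 ± 0.15, adjusted p = 0.0387 in limma). Their list mean was 5.79 to 6.47 in old tumour-bearing and 5.96 to 7.06 in old cancer-free mice, against 6.60 to 6.90 in young tumour-bearing and 6.54 to 7.16 in young cancer-free mice. Its correlation with the mean z-score of the 8 genes was 0.88 over the 14 arrays and 0.75 with group means subtracted. The 7.06 belonged to old cancer-free replicate 1, the old array with the highest mean z-score. Of all lists, the wider programme described above had the highest correlation with that score, 0.97 (0.94 with group means subtracted). The partners of the transcription factors were at 0.84 (0.65), endothelial markers at 0.73 (0.59) and B lineage markers at 0.30 (0.25).

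Of 11 cell cycle genes, 10 were lower at an unadjusted p under 0.05, with a median of -1.32, and 0 were called. Their list mean was 5.41 to 6.89 on old and 7.09 to 7.56 on young arrays, and its correlation with the mean z-score was 0.77 (0.41 with group means subtracted). T cell markers ran the other way, with 6 of 8 higher at an unadjusted p under 0.05, 0 called and a median of 0.77. Taken separately, their median age difference was 1.28 in tumour-bearing and 0.24 in cancer-free mice. Their list mean was 7.98 to 8.26 in old tumour-bearing and 7.46 to 8.36 in old cancer-free mice, against 6.55 to 7.44 in young tumour-bearing and 7.46 to 8.26 in young cancer-free mice. The correlation was -0.78, and -0.89 with group means subtracted. Immediate early genes, a sign of handling or stimulation, had 7 of 8 higher at an unadjusted p under 0.05 and 0 called, with a correlation of -0.53 (0.04 with group means subtracted). Their median age difference was 0.68 in tumour-bearing and 1.19 in cancer-free mice. The part of these lists in the differences of the 8 genes was not tested.

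**Figure D5:**
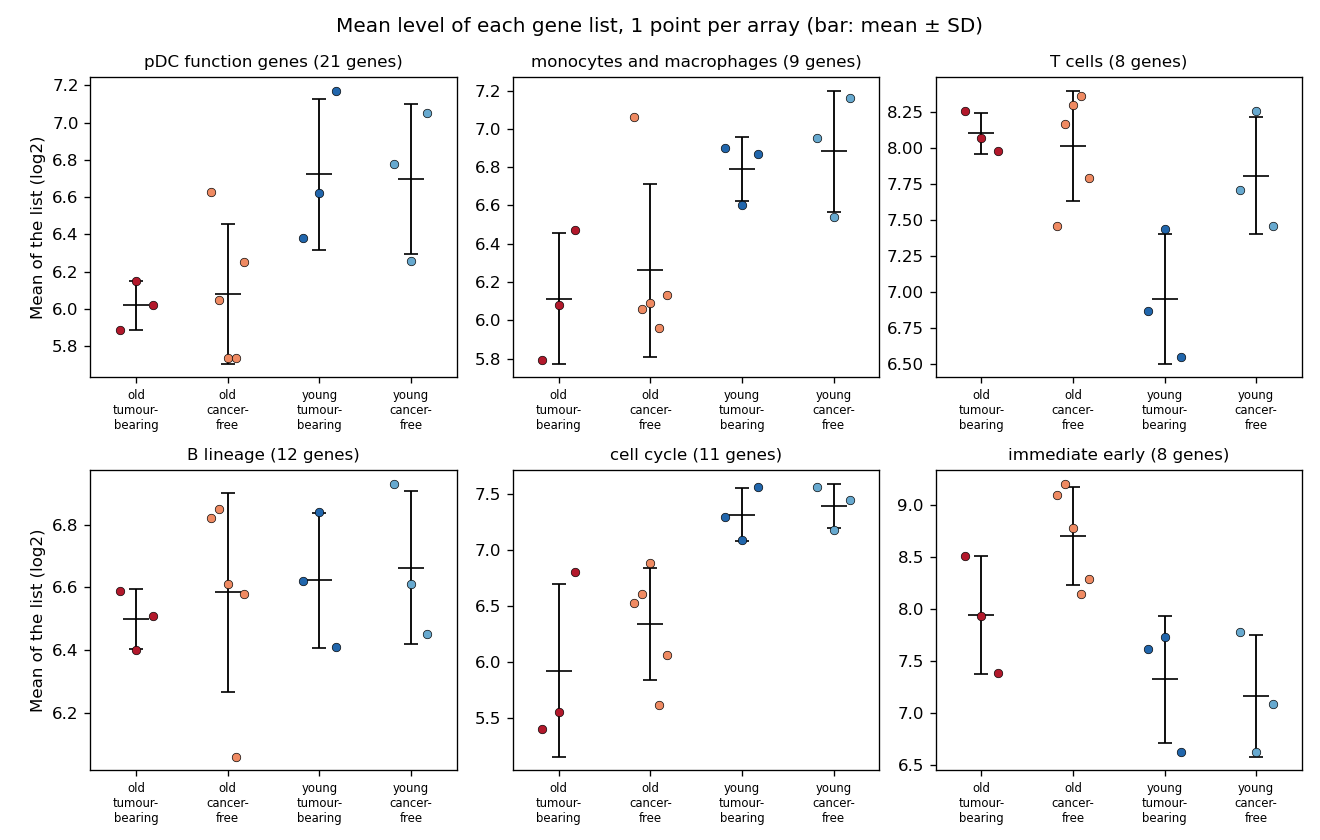
Mean log2 level of 6 gene lists, 1 point per array, in old tumour-bearing, old cancer-free, young tumour-bearing and young cancer-free mice, with the mean ± SD as a bar and a y axis per panel that does not start at 0. Cell cycle genes are lower on all old arrays than on all young arrays, and B lineage genes overlap in all 4 groups.

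B lineage markers, which matter because Tcf4, Spib and Bcl11a are also B cell genes, had 0 of 11 at an unadjusted p under 0.05, with a median of -0.07. Their list mean was 6.40 to 6.59 in old tumour-bearing and 6.06 to 6.85 in old cancer-free mice, against 6.41 to 6.84 in young tumour-bearing and 6.45 to 6.93 in young cancer-free mice. Vpreb1 was below the floor throughout. Conventional dendritic cell markers had 1 of 10 lower and 1 higher, with a median of -0.11: the integrin Itgax, which plasmacytoid dendritic cells carry at a low level too, was at -1.60 ± 0.33 and the factor Zbtb46, which lay around the floor, at 0.34 ± 0.13. The remaining lists had no more than 1 member at an unadjusted p under 0.05. Plasma cell markers had 0 of 6, natural killer cell markers 1 of 8 (Gzma, -1.05 ± 0.44), neutrophil markers 1 of 9 (Mpo, -1.42 ± 0.39), stromal markers 0 of 5, endothelial markers 1 of 4 and erythroid markers 0 of 2. The endothelial one was Pecam1 (-0.92 ± 0.15, adjusted p = 0.0429 in limma), which leukocytes also express. The other endothelial markers tested were Eng (-0.48 ± 0.24), Cdh5 (-0.02 ± 0.30) and Kdr (0.02 ± 0.11). Which cells the Pecam1 difference came from was not tested.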

How the data were processed

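Total RNA of sorted bone marrow cells from 14 mice was amplified from picogram amounts (Ovation Pico WTA) and read with a biotin label on 1-colour arrays, 1 per mouse, per the labels' protocols. The deposited table holds log2 expression from the authors' RMA. The submitters' processing notes name oligo 1.32.0 and R 3.2.0. RMA pulls the arrays to 1 distribution, so a shift shared by most genes is not visible. The genome build and any filter are not given in the sources used here.

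Groups come from the sample titles. Symbols came from the platform annotation, updated by Entrez identifier. Of 41345 probes, 23521 had 1 symbol, 1814 several and 16010 none, which gave 22180 genes by brightest probe. Genes above 3.88 on at least 3 arrays (13805) were fitted as 4 group means in limma 3.58.1 under R 4.3.3 (7 contrasts, residual and prior degrees of freedom 10 and 3.86), two-sided, with Benjamini-Hochberg adjustment over all tested genes at 0.05. ± is the SE for a difference and the SD for a level. Tested on simulated data, a log2 change of 1 between the ages on average was recovered for 65% of 200 changed genes among 13805, and a change of 2 for 96.5%. The changed genes were drawn from all tested genes, with noise independent between genes. Recovery for genes as spread as Spib (SD 1.43 in old cancer-free mice) was not measured.

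The identity genes, lists and tests were chosen with earlier results of these data known. Named beside them by rule were Tlr7, Tlr9, Irf7, Irf8, Bst2, Id2, relatives, up to 4 genes of every list with the smallest p between the ages, and the 10 genes most alike. Ifnb1, Vpreb1, the dim markers and those used to check the label were named outside this rule. Alternatives changed the filter, the scaling, the variance prior, array weights, the probes, the arrays in the fit and a replicate block. Deviations from the group means of arrays with equal replicate numbers had correlations of -0.0762 to 0.0887. Unlike numbers were not computed for comparison, so whether equal numbers share a batch was not tested. No 2 arrays were identical.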

Additional observations from a re-analysis of the deposited data

How the results depend on the processing

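Of 485 reruns of the age differences of the 8 genes, 482 kept their sign, and the 3 that did not were all Lair1. Of 684 reruns of the tumour differences and their difference by age, 40 turned their sign, none of them called. Without 1 array, genes called between the ages on average numbered 0 to 74 and identity genes called 0 to 1, against 12 and 0. The lowest count was without young cancer-free replicate 3 and the highest without old tumour-bearing replicate 3, and it moved by over 1.5 times without each array but old cancer-free replicate 3 and young tumour-bearing replicate 2. Genes called were 6 with cyclic loess, 65 with median centring, 57 with array weights and 43 without the 2 least correlated arrays (replicate 3 of the old and replicate 1 of the young tumour-bearing mice). With the replicate block they were 0. Identity genes called were 1 (Cox6a2) with median centring and with array weights. Between ages in tumour-bearing mice, genes called were 0 to 2 without 1 array, 7 with median centring or with the mean of the probes, and 6 without the 2 least correlated arrays. For tumour in old mice they were 0 to 4 without 1 array. Identity genes at an unadjusted p under 0.05 in cancer-free mice were 1 to 6 without 1 array and 2 with cyclic loess or without the 2 arrays. For tumour in young mice, in old mice, on average and for its difference by age, they were 0 to 1 without 1 array, and with the replicate block 1 in each but young mice. The block changed no other call, and whether equal numbers share a batch was not tested.

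Signs turned for tumour in young mice as follows: Lair1 with cyclic loess (0.095), array weights (0.17) and without the 2 arrays (0.35). Ptprs turned with array weights (0.014) and without the 2 arrays (0.11), Bcl11a with the mean of its probes (0.0045), the dimmer probe (0.23) and without the 2 arrays (0.24). Spib turned without the 2 arrays (-0.14) and with each array's mean correlation added as a term (-0.0025), as did Tcf4 (-0.16) and Cox6a2 (-0.14) with that term. Without the 2 arrays Ptprs turned for tumour in old mice (-0.032) and for the difference by age (-0.14), and Lair1 for tumour on average with cyclic loess (0.0037).

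Without 1 array, Lair1 ran from -0.44 to 0.077 between the ages on average, -0.43 to 0.19 in cancer-free and -0.73 to 0.31 in tumour-bearing mice. For tumour in young mice the ranges were -0.13 to 0.57 (Siglech), -0.63 to 0.35 (Lair1), -0.11 to 0.11 (Ptprs), -0.13 to 0.30 (Tcf4), -0.14 to 0.86 (Spib) and -0.86 to 0.24 (Bcl11a). For tumour in old mice they were -0.59 to 0.12 (Lair1), -0.032 to 0.39 (Ptprs) and -0.25 to 0.082 (Pacsin1). On average they were -0.40 to 0.092 (Lair1) and -0.032 to 0.18 (Ptprs), and for the difference by age -0.57 to 0.47 (Lair1) and -0.95 to 0.15 (Bcl11a). The cause was not tested. The stricter filter left out Ptprs and Pacsin1. With 3 to 5 arrays a group, signal near the floor limits Spib and Ptprs most. Pacsin1, at 4.04 to 5.78, passed the floor on every array but lay near it too.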

Other observations

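Between old tumour-bearing and old cancer-free mice, 4 genes among the relatives, the partners and the wider programme were lower without overlap of the arrays. Runx3, a RUNX factor of lymphocytes, averaged 6.48 ± 0.06 in old tumour-bearing and 7.14 ± 0.05 in old cancer-free mice (SD), which differ by -0.66 ± 0.14 (SE, adjusted p = 0.197 in limma). In young mice it averaged 7.16 ± 0.24 with a tumour and 7.19 ± 0.05 without. Siglecg, an inhibitory lectin of B cells, was at 3.85 ± 0.11 in old tumour-bearing and 4.67 ± 0.15 in old cancer-free mice, with 1 of the 3 old tumour-bearing arrays above the floor of 3.88, so the difference of -0.83 ± 0.23 is not an exact size. Id2 was at -0.91 ± 0.26 and Tlr9 at -1.07 ± 0.38 in the same comparison. For each of these 4 genes all old tumour-bearing arrays lay below all old cancer-free arrays. For Tlr9 this was by a narrow margin, with 5.73 as the highest old tumour-bearing and 5.75 as the lowest old cancer-free array. The same 2 values were 8.51 and 8.66 for Id2, 3.95 and 4.45 for Siglecg, and 6.53 and 7.06 for Runx3. Id2 was separated in young mice too, with 8.78 as the highest tumour-bearing and 8.87 as the lowest cancer-free array. Runx3, Siglecg and Tlr9 overlapped in young mice. The share of all genes so separated in young mice is not given here. In old mice the 4 genes were 2 of the 11 relatives tested (Runx3 and Siglecg), 1 of the 10 partners (Id2) and 1 of the 20 genes of the wider programme (Tlr9). This stands against 3.04% of all tested genes, and none passed the adjusted threshold. The interaction with age was -0.64 ± 0.21 for Runx3, -1.002 ± 0.35 for Siglecg, -1.09 ± 0.56 for Tlr9 and -0.42 ± 0.40 for Id2, each with adjusted p of 0.976 or more in limma. These 4 genes were singled out after their values were seen.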
